A study of Mus musculus with 40 samples.

Results

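RNA from 5 4T1 primary tumors of mice that had received chitin together with anti-PD-1 (the combination) was compared with RNA from 5 4T1 primary tumors of mice that had received chitin alone, taking the combination minus chitin for every one of 14318 genes. These 10 tumors are part of 39 in the series. All came from wild-type female BALB/c mice whose mammary ducts had been inoculated with 4T1 cells, a mouse mammary carcinoma line used as a model of triple-negative breast cancer, while they were lactating, and tumors were taken at 5 w post-inoculation. Both groups received 1 mg chitin particles of 1 to 10 µm per mouse by repeated intraperitoneal injection, and the combination group also received 200 µg per mouse of an antibody against mouse PD-1 (clone RMP1-14) by the same route, which is the labelled difference between the groups. The labels name no control antibody for the group that received chitin alone. The other groups of the series that are used below are 5 4T1 tumors with anti-PD-1 alone, 4 untreated 4T1 tumors, and 5 chitin and 5 combination tumors grown from 66cl4, a second mammary carcinoma line.

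PD-1, encoded by Pdcd1, is an inhibitory receptor on activated T cells. Its ligands PD-L1 and PD-L2 are displayed by tumor and myeloid cells, and antibodies that block PD-1 release T cells from this brake. Chitin is bound by chitinases and by chitinase-like proteins such as CHI3L1 (Chil1) and CHI3L3 (Chil3), secreted proteins that bind chitin without cutting it. 4T1 tumors are known for drawing in many neutrophils, short-lived myeloid cells that leave the bone marrow under the growth factor G-CSF and follow CXC chemokines into tissue, where they release granules filled with proteases and antimicrobial proteins.

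Gene-assigned depth ranged from 5594719 to 9908975 reads in the combination and from 6030355 to 13156621 reads with chitin, with means of 7288530 and 9584491 reads that did not differ beyond the spread between tumors (two-sided exact permutation test, p = 0.175). Expression values are variance-stabilized counts on a log2-like scale with a floor of 6.05 that stands for 0 reads. This scale compresses differences between genes with few reads, and normalised counts, which are reads divided by a size factor per tumor, are therefore given beside it. Epcam, an epithelial surface protein of carcinoma cells, lay between 11.48 and 13.36 in all 10 tumors. The combination tumors were more unlike each other than the chitin tumors in some tissue components and less so in others. The SD of list means, combination against chitin, was 1.16 against 0.40 for collagen and fibroblast genes and 1.08 against 0.29 for skeletal muscle genes. It was 0.20 against 0.62 for B-cell genes and 0.23 against 0.57 for MHC class II genes. Combination tumor 1 had the lowest mean of 20 collagen and fibroblast genes, 9.37 against 11.18 to 12.35 in the other combination tumors and 10.56 to 11.50 with chitin. Combination tumor 5 had a mean of 9.70 over 16 skeletal muscle genes against 6.66 to 8.03 in the other 9 tumors. Where leaving out one of these tumors moved a group of genes or a named gene by over 1.5 times or turned its direction, the value without it is given in most cases beside it. The first principal component of the 10 tumors held 28.8% of the variance and the groups overlapped along it.

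Adding anti-PD-1 to chitin changed no gene at an adjusted p of 0.05, neither upward nor downward (limma, Benjamini-Hochberg over all genes, background 0% in either direction, smallest adjusted p 0.9999). At an unadjusted p of 0.05, 248 genes (1.73% of those tested) had a higher and 197 (1.38%) a lower mean in the combination, together 445 genes or 3.11%. That share is lower than the threshold itself would admit if no gene differed. In all 5 combination tumors, 36 genes (0.251%) lay above all 5 chitin tumors, and 20 genes (0.14%) lay below all of them. Chance alone also separates some genes in this way, so genes without overlap are named below as a description only. Differences were small for most genes, with a median size of 0.0784, and 51.8% of genes had a higher and 48.1% a lower mean in the combination. A difference of 1 or more was found for 18 genes, of which 16 were higher and 2 lower. limma-voom on recovered reads likewise gave no gene at an adjusted p of 0.05, and 400 at an unadjusted p of 0.05. When both tumor models entered one fit, so that the 66cl4 tumors shared in the estimate of the spread, 5 genes passed, all higher in the combination and among them Cd177, Mmp8, Retnlg and Cxcr2, with adjusted p-values from 0.0125 to 0.0479 (limma). Their differences were the same as in the main fit. The estimate of the spread changed, and it rested on 39 tumors instead of 19. The SE for Cd177, Mmp8, Retnlg and Cxcr2 was 0.09, 0.06, 0.11 and 0.09 in 66cl4 alone. In 4T1 it was 0.13, 0.17, 0.24 and 0.18. Leaving out combination tumor 2 gave 2 genes, Retnlg and Ifitm6, the latter an interferon-induced transmembrane family gene named here after its values were seen.

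**Figure D1:**
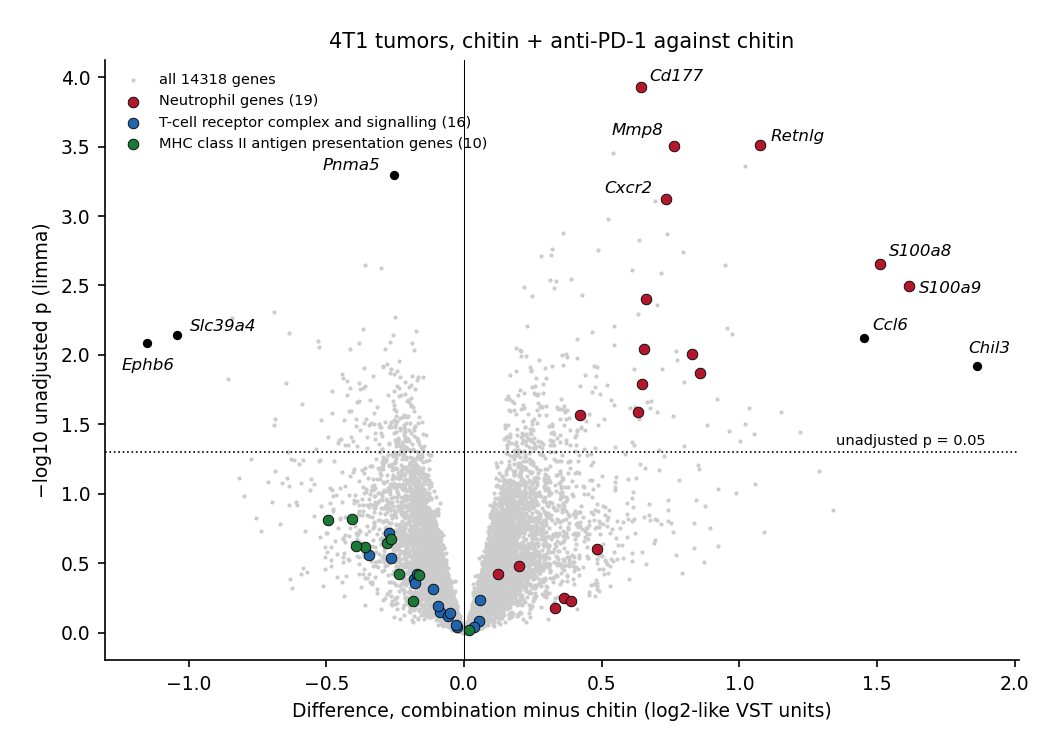
Difference between group means (combination minus chitin, log2-like VST units, horizontal axis) against −log10 of the unadjusted limma p (vertical axis) for 14318 genes in 4T1 tumors, with 19 neutrophil, 16 T-cell and 10 MHC class II genes coloured and the dotted line at an unadjusted p of 0.05. The 19 neutrophil genes all lie to the right of 0, 13 of them above the line, while the T-cell and MHC class II genes all lie below the line.

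Cd177, a surface glycoprotein carried by a subset of neutrophils, led the 15 genes with the smallest p among those higher in the combination. Its values in combination tumors 1 to 5 were 7.67, 7.03, 7.24, 7.66 and 7.46, and in chitin tumors 1 to 5 they were 6.57, 6.75, 6.93, 6.81 and 6.81. All combination tumors lay above all chitin tumors. The means were 7.41 ± 0.28 (SD, n = 5) and 6.77 ± 0.13 (SD, n = 5), a difference of 0.64 with an SE of 0.13 (95% interval 0.37 to 0.92, unadjusted p = 0.000118, limma). In normalised counts this was 66.6 ± 26.8 against 17.4 ± 6.01 (SD), a ratio of 3.83.

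Retnlg, a resistin-like secreted protein of neutrophils, was at 8.71, 7.17, 7.95, 8.30 and 8.31 in the combination and at 6.76, 6.97, 7.24, 6.79 and 7.32 with chitin. Only combination tumor 2 fell within the chitin range. The difference was 1.07 with an SE of 0.24 (unadjusted p = 0.000309), and mean normalised counts were 173 and 32.8, a ratio of 5.28. Mmp8, the collagenase of neutrophil granules, was at 7.90, 7.07, 7.29, 8.07 and 7.33 in the combination and at 6.51, 6.66, 7.19, 6.63 and 6.88 with chitin, a difference of 0.76 with an SE of 0.17 (unadjusted p = 0.000311). Combination tumor 2 was again the one below the highest chitin tumor, which was number 3. Cxcr2, the receptor through which neutrophils follow CXC chemokines, was at 8.68, 7.72, 7.73, 8.18 and 7.83 in the combination and at 6.93, 7.28, 7.83, 7.42 and 7.0 with chitin, a difference of 0.73 with an SE of 0.18 (unadjusted p = 0.000756). Here chitin tumor 3 lay within the combination range.

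Fpr2, a receptor for formyl peptides and other attractants of neutrophils and monocytes, was uniform in the combination, at 7.50 to 7.72, and lay at 6.85 to 7.34 with chitin, without overlap (difference 0.54, SE 0.12, unadjusted p = 0.000354). Mcemp1, a membrane protein of mast cells and neutrophils, was at 7.24 to 7.91 and at 6.61 to 7.02, without overlap (difference 0.55, SE 0.12, unadjusted p = 0.00023). Pygl, which breaks down glycogen, was at 8.58 to 9.48 and at 7.91 to 8.55, also without overlap (difference 0.69, SE 0.17, unadjusted p = 0.000783). A further 7 genes of the 15 had differences from 0.32 to 0.80. Among them were Clec7a, the beta-glucan receptor Dectin-1 of myeloid cells (9.48 to 9.71 against 8.82 to 9.59, difference 0.52), Lilrb4a, an inhibitory receptor of myeloid cells that has a near-identical neighbouring gene (9.46 to 10.41 against 8.80 to 9.83, difference 0.74), Ms4a8a (6.75 to 7.54 against 6.40 to 6.63, difference 0.63, no overlap) and F10, coagulation factor X (7.64 to 8.97 against 7.0 to 7.61, difference 0.80, no overlap). Dpep2, a dipeptidase that cleaves leukotriene D4, differed by 0.36, Ankrd33b by 0.49 and Cass4, an adhesion scaffold, by 0.32, the smallest of the 15.

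Beyond these, the largest differences among genes without overlap included Ccl6, a CC chemokine of myeloid cells. Its values were 10.73, 11.34, 11.84, 11.31 and 11.04 in the combination and 8.82, 9.30, 10.54, 10.35 and 9.99 with chitin. The difference was 1.45 with an SE of 0.48 (unadjusted p = 0.00754), and mean normalised counts were 2.81-fold higher in the combination. Tarm1, an activating receptor of neutrophils, was at 7.05 to 7.55 against 6.73 to 6.87 (difference 0.43). Cyp4f18, a leukotriene B4-degrading enzyme of myeloid cells, was at 7.47 to 8.06 against 7.25 to 7.45 (difference 0.41), and Gcnt1, a glycosyltransferase that builds selectin ligands, was at 7.39 to 7.84 against 6.92 to 7.37 (difference 0.37).

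Neutrophil genes as a list were therefore described in full. The list was chosen with earlier results of these data known. Its members Cd177, Retnlg, Mmp8 and Cxcr2 were already named above for their small p. The counts below come from the same tumors, so they are a description and no independent support. In whole tumors, more cells of a type and more RNA per cell cannot be told apart. Of 25 genes in the list, 19 were among the genes tested, and the defining markers Ly6g, Mpo and Elane were not analysed here. All 19 had a higher mean in the combination, 13 of them at an unadjusted p of 0.05, where 1.73% of all genes were called in this direction. The median difference was 0.65, against 0.0047 over all genes. Averaged over the list, combination tumors 1 to 5 had 9.23, 8.01, 8.03, 8.46 and 8.39, and chitin tumors 1 to 5 had 7.33, 7.59, 8.22, 7.71 and 7.87. Combination tumor 1 was highest and chitin tumor 3 reached above combination tumors 2 and 3. Without combination tumor 1, 18 of 19 genes had a higher mean, 10 at an unadjusted p of 0.05, and the median was 0.50. Without combination tumors 1 and 5, an alternative chosen after seeing the data, these counts were 18 and 7 and the median was 0.40.

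Promoter sequences of 5 of these genes are shown because the genes were higher together in the same tumors. They run from 250 bases before to 50 bases after the start site and were taken from RefSeq on GRCm38.p6. Capitals mark matches to TTGCNNAA, the core recognized by C/EBP factors of granulocytes, or to GAGGAAGT, a sequence bound by PU.1, on either strand. The windows are chr7:24760262-24760561 (minus strand) for Cd177, chr16:48872358-48872657 (plus strand) for Retnlg, chr9:7558179-7558478 (plus strand) for Mmp8, chr3:90668821-90669120 (plus strand) for S100a8 and chr3:90695672-90695971 (minus strand) for S100a9.
Cd177: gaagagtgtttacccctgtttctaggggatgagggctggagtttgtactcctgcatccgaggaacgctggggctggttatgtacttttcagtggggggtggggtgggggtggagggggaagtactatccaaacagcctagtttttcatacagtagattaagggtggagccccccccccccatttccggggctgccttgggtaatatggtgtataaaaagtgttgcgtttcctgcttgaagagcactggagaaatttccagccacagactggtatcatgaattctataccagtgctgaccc
Retnlg: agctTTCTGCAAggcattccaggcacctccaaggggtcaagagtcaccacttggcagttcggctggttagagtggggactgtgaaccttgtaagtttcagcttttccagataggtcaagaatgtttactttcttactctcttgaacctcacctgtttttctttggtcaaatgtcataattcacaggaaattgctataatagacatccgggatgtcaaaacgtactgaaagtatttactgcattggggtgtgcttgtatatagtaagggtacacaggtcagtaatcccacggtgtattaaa
Mmp8: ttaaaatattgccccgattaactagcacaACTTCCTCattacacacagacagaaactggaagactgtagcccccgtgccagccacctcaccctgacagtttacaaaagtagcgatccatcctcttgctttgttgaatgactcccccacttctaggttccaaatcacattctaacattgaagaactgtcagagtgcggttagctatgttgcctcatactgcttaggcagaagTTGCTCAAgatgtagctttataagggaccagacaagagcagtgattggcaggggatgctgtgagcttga
S100a8: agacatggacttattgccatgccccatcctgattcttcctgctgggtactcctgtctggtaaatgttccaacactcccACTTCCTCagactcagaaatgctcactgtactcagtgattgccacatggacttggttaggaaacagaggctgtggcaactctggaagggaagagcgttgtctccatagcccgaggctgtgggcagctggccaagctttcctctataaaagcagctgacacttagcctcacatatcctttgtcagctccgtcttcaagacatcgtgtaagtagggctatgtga
S100a9: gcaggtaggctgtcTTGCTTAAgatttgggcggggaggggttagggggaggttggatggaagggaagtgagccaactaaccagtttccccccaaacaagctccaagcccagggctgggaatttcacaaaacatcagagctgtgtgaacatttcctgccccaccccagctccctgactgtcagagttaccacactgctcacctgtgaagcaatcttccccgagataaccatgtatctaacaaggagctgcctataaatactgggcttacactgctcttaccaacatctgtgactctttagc
Matches to TTGCNNAA were found in the windows of Retnlg (TTCTGCAA, the reverse complement), Mmp8 (TTGCTCAA) and S100a9 (TTGCTTAA), and matches to GAGGAAGT in those of Mmp8 and S100a8 (both as ACTTCCTC), while the Cd177 window held neither. No 2 of these matches overlapped. A promoter was given for 18 of the 19 neutrophil genes, and 6 of them (Lcn2, Ltf, Mmp8, Ngp, Retnlg and S100a9) held TTGCNNAA, against 10.4% of the tested genes that have a promoter entry and 10.8% of all promoters. GAGGAAGT was held by 2 of the 18, against 3.93% of tested genes and 3.20% of all promoters. These matches are a description of letters, and binding was not measured.

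By role, the alarmins S100a8 and S100a9, calcium-binding proteins that make up much of the neutrophil cytosol, had the largest differences of the list. S100a8 was at 11.48, 8.10, 8.96, 9.67 and 9.44 in the combination and at 7.50, 7.90, 8.86, 7.94 and 7.90 with chitin. Combination tumor 1 stood far above the rest, and tumor 2 lay within the chitin range. The difference was 1.51 with an SE of 0.42 (95% interval 0.62 to 2.40, unadjusted p = 0.00221), and without combination tumor 1 it was 1.02. S100a9, its partner in the heterodimer calprotectin, was at 12.18, 8.56, 9.29, 10.16 and 9.95 against 7.69, 8.23, 9.45, 8.30 and 8.39, a difference of 1.61 with an SE of 0.48 (unadjusted p = 0.00321) that was 1.08 without combination tumor 1. The same tumors were high and low for both genes.

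Granule genes differed among themselves. Ngp, a granule protein made in neutrophil precursors, had a difference of 0.86 with an SE of 0.31 (unadjusted p = 0.0136). Values for other granule genes were far from the threshold, with differences of 0.12 for the antimicrobial peptide gene Camp, 0.36 for Ltf (lactoferrin), 0.39 for Lcn2 (lipocalin-2) and 0.33 for Mmp9 (gelatinase B), and unadjusted p-values from 0.377 to 0.660. Ltf and Lcn2 are also made by mammary epithelium, and both turned to a lower mean in the combination, by 0.12 and 0.29, when chitin tumor 1 was left out, as did Lcn2, at -0.23, without combination tumor 1. The stefin genes Stfa2 and Stfa2l1, protease inhibitors of myeloid cells that belong to a family of near-identical copies, had differences of 0.66 (unadjusted p = 0.00396) and 0.63 (unadjusted p = 0.0259), or 0.43 and 0.32 without combination tumor 1.

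Among receptors and enzymes of activated neutrophils, Hdc, which makes histamine, had a difference of 0.83 (SE 0.29, unadjusted p = 0.00985). Clec4d, a C-type lectin receptor, had 0.65 (SE 0.24, unadjusted p = 0.0161), and Trem1, which amplifies inflammatory signals, had 0.42 (SE 0.18, unadjusted p = 0.0271). The decoy receptor gene Il1r2 and the itaconate-making enzyme gene Acod1 had differences of 0.20 and 0.48 with unadjusted p-values of 0.333 and 0.250. Without combination tumor 1 the differences were 0.52 for Hdc, 0.42 for Clec4d, 0.07 for Il1r2 and 0.06 for Acod1. Csf3r, the G-CSF receptor, was at 9.61, 8.63, 8.59, 8.95 and 9.27 in the combination and at 7.79, 8.69, 8.93, 8.0 and 8.36 with chitin, a difference of 0.65 with an SE of 0.22 (unadjusted p = 0.00907).

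**Figure D2:**
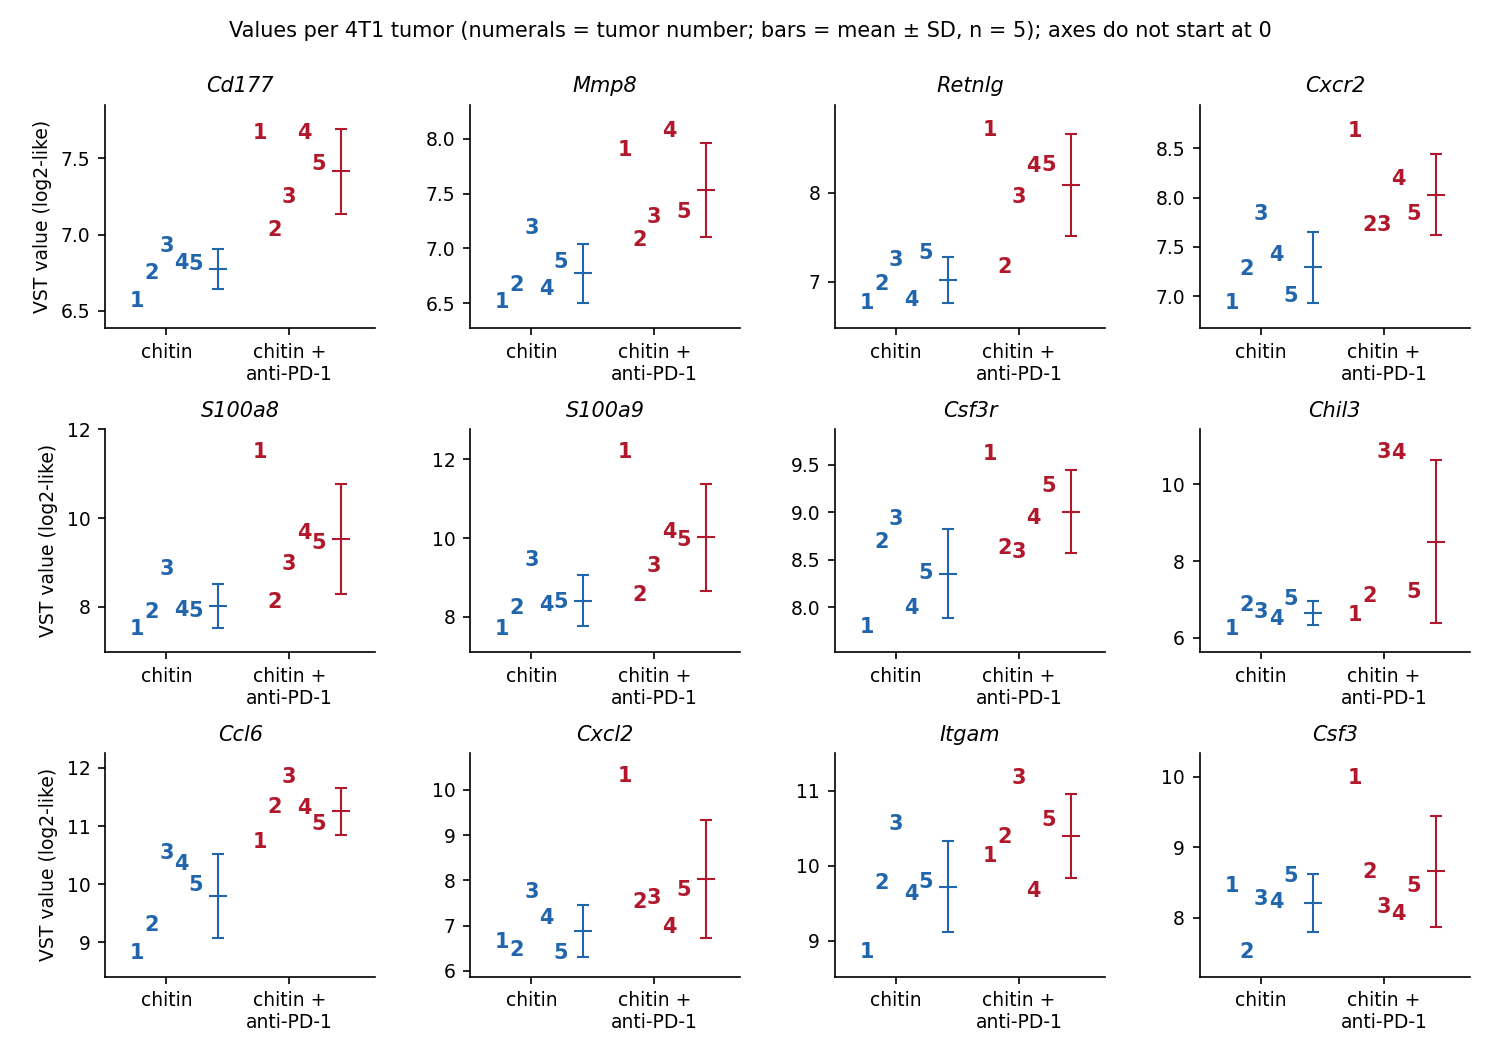
VST values (log2-like, vertical axes, which do not start at 0) of 12 genes in 5 chitin (blue) and 5 combination (red) 4T1 tumors, where each numeral is the number of a tumor and the bars give the mean ± SD. Cd177 and Ccl6 do not overlap between groups, Chil3 is high in combination tumors 3 and 4 only, and Cxcl2, Csf3 and S100a8 are highest in combination tumor 1.

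Ligands that call or sustain neutrophils were next. Of 7 neutrophil-attracting CXC chemokine genes 6 were tested, all with a higher mean in the combination, but only Cxcl2 reached an unadjusted p of 0.05. Cxcl2 was at 10.29, 7.52, 7.62, 6.96 and 7.79 in the combination and at 6.64, 6.47, 7.75, 7.18 and 6.39 with chitin. Combination tumor 1 stood apart from all others, and the difference of 1.15 (SE 0.47, unadjusted p = 0.0258) fell to 0.58 without it. Cxcl5 showed the same tumor at 10.11 and the other 9 tumors at 6.59 to 7.62, a difference of 0.85 (unadjusted p = 0.0622) that was 0.25 without combination tumor 1. The median over the 6 genes was 0.71 with all tumors and 0.22 without combination tumor 1, where 5 had a higher mean.

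Over all genes, 51.8% had a higher mean in the combination and 1.73% were called higher at an unadjusted p of 0.05. Colony-stimulating factors and their receptors had a higher mean in the combination for 9 of 10 genes, 2 of them at an unadjusted p of 0.05, with a median of 0.27, and for 7 of 10 with a median of 0.15 without combination tumor 5. Besides Csf3r, which is also in the neutrophil list, this was Csf2, encoding GM-CSF, a factor for granulocytes and macrophages. Its reads were few, 53, 16, 18, 37 and 16 in the combination and 20, 7, 9, 31 and 8 with chitin, and its values differed by 0.33 (SE 0.10, unadjusted p = 0.00327) with overlap between groups. Csf3, encoding G-CSF itself, was at 9.99 in combination tumor 1 and at 8.05 to 8.64 in the other combination tumors, against 7.51 to 8.60 with chitin. Its difference of 0.45 lay within the spread (95% interval -0.39 to 1.29, unadjusted p = 0.279) and was 0.11 without combination tumor 1.

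Chitinase-like proteins are the targets that chitin is meant to occupy. Of 14 listed chitinase, chitinase-like and chitin-response genes 7 were tested, with a median difference of 0.08. A higher mean was found for 4 of the 7, against 51.8% of all genes. At an unadjusted p of 0.05, 2 were higher, Chil3 and Clec7a, where 1.73% of all genes were called higher. Chil3, made by neutrophil precursors and by macrophages under type 2 cytokines, was at 6.60, 7.09, 10.84, 10.81 and 7.20 in the combination and at 6.22, 6.86, 6.67, 6.48 and 7.0 with chitin. Combination tumors 3 and 4 were high, with 1345 and 1776 reads, and the other 8 tumors had between 1 and 38 reads. The difference was 1.86 with an SE of 0.67 (unadjusted p = 0.012), and leaving out combination tumor 3 left 1.28. Reads of Chil3 and of its near-identical paralog Chil4, which was not analysed here, may not be separable. Chil1 was at 6.79 to 8.44 in the combination and at 6.64 to 7.91 with chitin, a difference of 0.41 within the spread (95% interval -0.23 to 1.04, unadjusted p = 0.197). Chid1, a widely expressed chitinase-domain gene, and Ovgp1 differed by -0.01 and -0.04.

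These neutrophil differences were then set beside the same addition of anti-PD-1 to chitin in 66cl4 tumors and beside anti-PD-1 alone against untreated in 4T1 tumors, which share no tumor with the comparison above. At an unadjusted p of 0.05 the 66cl4 contrast called 1.6% of all genes higher and 1.47% lower, 3.07% in all, and the contrast without chitin called 4.52% higher and 4.37% lower, 8.89% in all. Over the 19 neutrophil genes the median difference was 0.02 in 66cl4, where 10 had a higher mean, and 0.05 for anti-PD-1 without chitin in 4T1, where 12 had a higher mean. For Cd177 the differences were 0.64, -0.03 and 0.21, for Mmp8 0.76, 0.02 and 0.01, for Cxcr2 0.73, -0.01 and -0.17, and for S100a8 1.51, 0.15 and 0.15, in this order. Retnlg had 1.07, 0.11 and 0.41. The mean of Cd177 in 66cl4 was 6.40 with chitin and 6.36 in the combination, against a floor of 6.05.

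Whether the contrast differed between models was tested gene by gene over all 8 groups. No gene passed an adjusted p of 0.05 (limma, background 0%, smallest adjusted p 0.673), and at an unadjusted p of 0.05 the contrast was larger in 4T1 for 271 genes (1.89%) and smaller for 245 (1.71%), 3.6% in all. Of the 19 neutrophil genes, 18 had a larger contrast in 4T1, 13 of them at an unadjusted p of 0.05, and 17 and 6 without combination tumors 1 and 5. Cd177 had the smallest p over all genes for this difference, 0.68 with an SE of 0.16 (unadjusted p = 0.000172). Mmp8 followed among the 5 smallest, beside Clba1, Zfp113 and Cdc42ep2, a CDC42 effector. Since this test uses the same 10 tumors, it is not independent of the values above. In 66cl4, Cd177 lay near the floor, where the scale compresses differences, and Camp differed by 0. The part of this compression in the smaller 66cl4 contrasts was not tested.

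In 4T1 the anti-PD-1 contrast was likewise compared with and without chitin. No gene passed an adjusted p of 0.05 (limma, background 0%, smallest adjusted p 0.927), and 339 genes (2.37%) had a larger and 309 (2.16%) a smaller contrast with chitin at an unadjusted p of 0.05, 4.53% in all. For the neutrophil list, 17 of 19 genes had a larger contrast with chitin, 8 at an unadjusted p of 0.05, and the median of the difference was 0.65. Without combination tumor 1 these were 16, 4 and 0.36. Plekha3, Pbp2, Mtfr1, Gdpd3 and A930015D03Rik had the smallest p-values for this difference, from 0.00021 to 0.002, none of them a neutrophil gene.

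**Figure D3:**
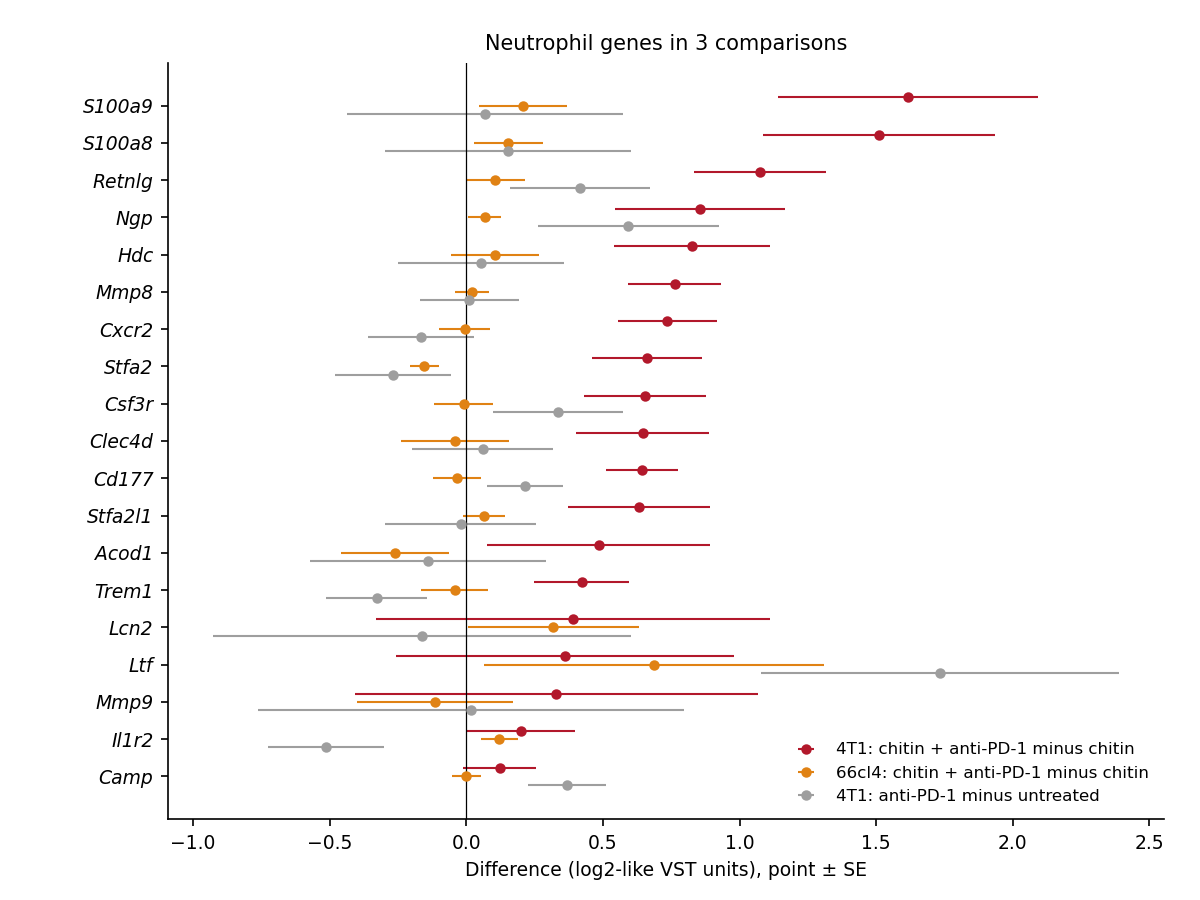
Differences (log2-like VST units, horizontal axis, point ± SE) of 19 neutrophil genes for the combination minus chitin in 4T1 (red) and in 66cl4 (orange), and for anti-PD-1 minus untreated in 4T1 (grey). All 19 red points lie right of 0, against 10 orange and 12 grey points.

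T cells carry the receptor that the antibody blocks, and their genes showed no difference beyond the spread between tumors. Pdcd1 was at 7.10, 7.13, 7.57, 7.19 and 7.90 in the combination and at 6.98, 8.21, 7.32, 7.49 and 7.86 with chitin. The groups overlapped fully, with a difference of -0.19 (95% interval -0.64 to 0.26, unadjusted p = 0.383). The ligand genes Cd274 (PD-L1) and Pdcd1lg2 (PD-L2) differed by 0.24 (95% interval -0.51 to 0.99) and 0.21 (-0.29 to 0.71), Cd274 by 0.06 without combination tumor 1 and Pdcd1lg2 by 0.07 without combination tumor 5. Other inhibitory receptors, Lag3, Havcr2 (TIM-3) and Ctla4, differed by -0.23, -0.02 and -0.02, with 95% intervals from -0.61 to 0.15, -0.30 to 0.27 and -0.30 to 0.26. Of 13 genes of this group, 5 had a higher mean and none reached an unadjusted p of 0.05, with a median of -0.02, and 8 had a higher mean without combination tumor 1.

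Cd8a, a coreceptor of cytotoxic T cells, was at 7.40, 7.26, 8.15, 7.96 and 8.82 in the combination and at 7.60, 9.02, 8.15, 7.95 and 8.60 with chitin, a difference of -0.35 (95% interval -0.995 to 0.30, unadjusted p = 0.277) that was -0.22 without combination tumor 1 and -0.57 without combination tumor 5. Its partner Cd8b1 differed by -0.09, the T-cell receptor chain gene Cd3e by -0.18, Cd3d by -0.27, Cd4 by 0.05, and Foxp3, the factor of regulatory T cells, by -0.04. Over 16 T-cell receptor genes, 3 had a higher mean, none reached an unadjusted p of 0.05, and the median was -0.09. Without combination tumor 1, 6 had a higher mean with a median of -0.02, and without combination tumor 5 none did and the median was -0.22. The list mean was 7.04 to 7.86 in the combination and 7.08 to 7.79 with chitin, with combination tumor 5 at the top of its group.

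Effector genes overlapped as well. Gzmb, a protease of cytotoxic granules, was at 8.90, 7.15, 7.54, 7.09 and 8.51 in the combination and at 7.80, 7.27, 8.05, 7.36 and 7.40 with chitin, a difference of 0.26 (95% interval -0.63 to 1.16, unadjusted p = 0.546) that was -0.0026 without combination tumor 1. The pore-forming protein gene Prf1 differed by 0.16 and Gzmc by 0.37, or by 0.01 and 0.14 without combination tumor 1, Ifng by 0.06, the chemokine gene Xcl1 by -0.22 and the natural killer receptor gene Ncr1 by -0.06. Of 16 cytotoxic and natural killer genes, 6 had a higher mean and none reached an unadjusted p of 0.05.

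With anti-PD-1 alone against untreated 4T1 tumors, the same 16 T-cell receptor genes all had a higher mean, with a median of 0.59, and the contrast was smaller with chitin for all 16, for 11 of them at an unadjusted p of 0.05 against 2.16% of all genes. Among the genes in the plot of intervals, Lag3 and Cd3d had the smallest p for this difference, 0.00875 and 0.009 unadjusted. Lag3 differed by -0.23 with and 0.55 without chitin, and Cd3d by -0.27 and 0.58. For 10 MHC class II genes the medians were -0.27 with and 0.56 without chitin, and the contrast was smaller with chitin for all 10, for 6 at an unadjusted p of 0.05. None passed an adjusted p of 0.05 (limma), and the untreated group held only 4 tumors. Other lists also differed between anti-PD-1 alone and untreated. Adipocyte genes had a higher mean for 11 of 11 (median 1.65), lactating mammary genes for 7 of 7 (1.38) and B-cell genes for 8 of 8 (1.00). Glycolysis and hypoxia genes did so for 1 of 22 (-0.55). The part of tissue make-up in the T-cell and MHC class II values was not tested.

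**Figure D4:**
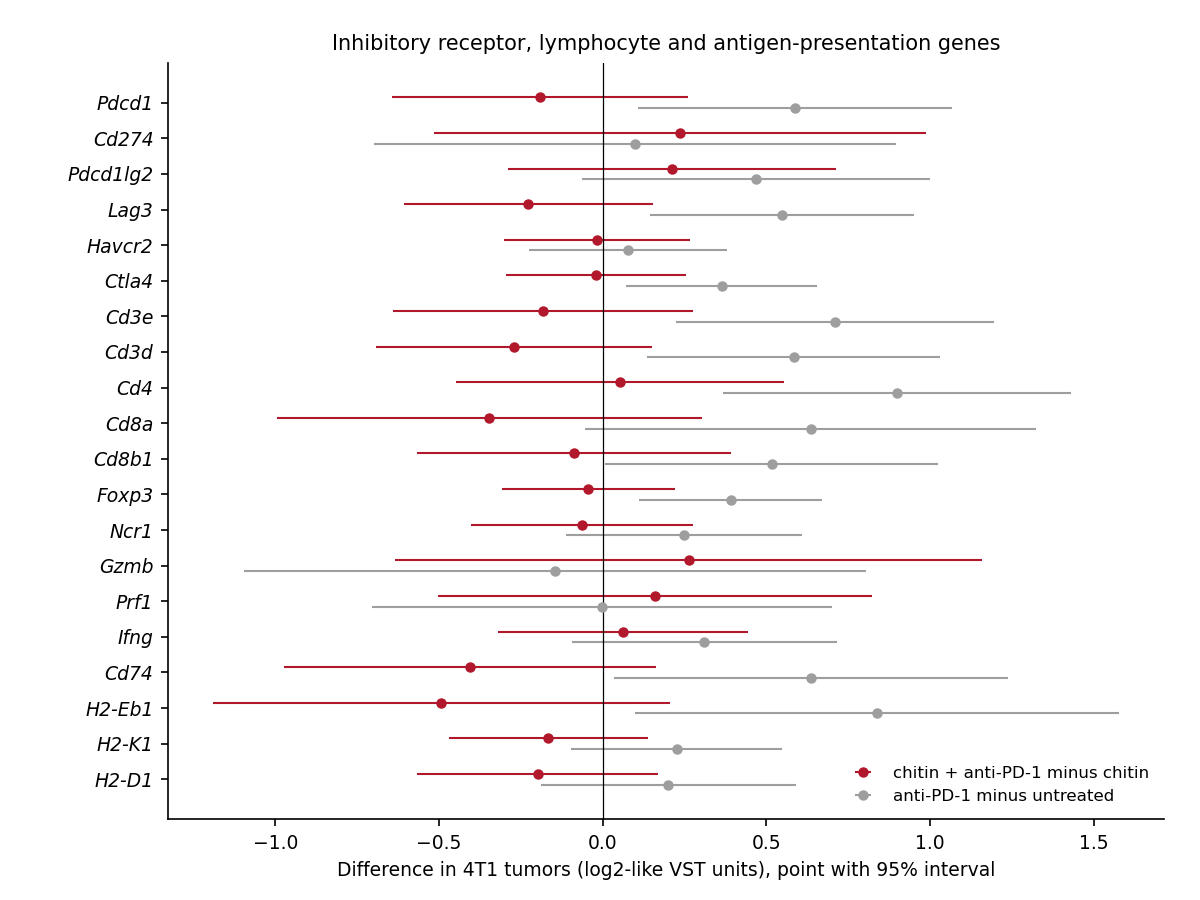
Differences with 95% intervals (log2-like VST units, horizontal axis) of 20 inhibitory receptor, lymphocyte and antigen-presentation genes in 4T1 tumors for the combination minus chitin (red) and for anti-PD-1 minus untreated (grey). All 20 red intervals include 0, and 18 of the 20 grey points lie right of 0.

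No antigen presentation gene listed here reached an unadjusted p of 0.05. MHC class II genes had a higher mean for 1 of 10, with a median of -0.27. Cd74, the invariant chain, was at 13.71 to 14.51 in the combination and at 13.85 to 15.01 with chitin (difference -0.41, 95% interval -0.97 to 0.16), and H2-Eb1 was at 12.03 to 12.79 and at 11.81 to 13.62 (difference -0.49, 95% interval -1.19 to 0.20). MHC class I genes had a higher mean for 2 of 11, with a median of -0.15. H2-K1 differed by -0.17 and H2-D1 by -0.20, both class I heavy chains with related sequences. Type I interferon-stimulated genes had a higher mean for 8 of 23 with a median of -0.05, but for 1 of 23 with a median of -0.24 without combination tumor 5. Interferon gamma induced GTPases had a higher mean for 8 of 15 with a median of 0.02. Without combination tumor 1 they had one for 2 of 15 with a median of -0.17, without combination tumor 5 for 2 of 15 with a median of -0.21, and without both for 0 of 15 with a median of -0.44.

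Macrophage and monocyte genes were uneven. Of 20 genes, 13 had a higher mean and 1, Itgam, reached an unadjusted p of 0.05, with a median of 0.15 that was 0.35 without combination tumor 1 and -0.05 without combination tumor 5. Itgam encodes CD11b, an integrin that neutrophils share, and was at 10.13, 10.38, 11.18, 9.67 and 10.61 in the combination and at 8.85, 9.77, 10.56, 9.63 and 9.78 with chitin (difference 0.68, SE 0.27, unadjusted p = 0.024). Csf1r, the receptor on which macrophages depend, was at 9.57 in combination tumor 1 and at 11.43 to 12.004 in the other combination tumors, against 10.43 to 11.90 with chitin. Its difference was 0.11 with all tumors and 0.51 without combination tumor 1. The scavenger receptor genes Cd163 and Mrc1 followed the same tumors. Cd163 was at 7.0, 9.94, 8.96, 10.02 and 10.45 in the combination and at 7.39, 7.38, 8.20, 8.85 and 8.10 with chitin, a difference of 1.29 (95% interval -0.11 to 2.69, unadjusted p = 0.0687), and Mrc1 differed by 0.75 (unadjusted p = 0.161), or by 1.24 without combination tumor 1 and 0.50 without combination tumor 5. In the combination, 4 of 5 tumors lay above all chitin tumors for Cd163. Arg1, an arginine-consuming enzyme of myeloid cells, differed by 0.73 (unadjusted p = 0.0531), Adgre1 (F4/80) by -0.12, the fractalkine receptor gene Cx3cr1 by -0.58, Ly6c2 by 0.26, Cd14 by 0.35, Itgax (CD11c) by -0.33 and Cd80 by 0.06. Without combination tumor 1 these were -0.25 for Cx3cr1, 0.04 for Ly6c2, 0.19 for Cd14 and -0.15 for Itgax.

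Over all genes, 51.8% had a higher mean in the combination and 1.73% were called higher at an unadjusted p of 0.05. Genes of cytokines that were assayed in tumor lysates had a higher mean for 7 of 10, with 2 at an unadjusted p of 0.05, Cxcl2 and Il6, and for 5 of 10 with a median of -0.01 without combination tumors 1 and 5. Both are also members of another list, Cxcl2 of the CXC chemokines and Il6 of the Stat3 targets. Il6 had few reads, 10 to 23 in the combination and 3 to 12 with chitin, and differed by 0.26 (SE 0.12, unadjusted p = 0.0449). Il1b was at 11.30 in combination tumor 1 and at 8.72 to 9.99 in the others, against 8.96 to 9.57 with chitin, and its difference of 0.52 (unadjusted p = 0.155) was 0.15 without that tumor. Tnf differed by -0.06, Il4 by -0.11, Il10 by 0.22 (0.05 without combination tumor 1), Ccl2 by 0.17 and Tgfb1 by -0.0045. Among IL-1, NF-κB and inflammasome genes, 16 of 18 had a higher mean, and 10 of 18 with a median of 0.05 without combination tumors 1 and 5. Nfkbia, the inhibitor that NF-κB induces against itself, reached 0.35 (unadjusted p = 0.0291), or 0.20 without combination tumor 1. Il1a differed by 0.71 (unadjusted p = 0.0677), or 0.31 without combination tumor 1. Stat3 target genes, with Stat3 itself in the list, had a higher mean for 11 of 12 with a median of 0.32, or 10 of 12 with a median of 0.11 without combination tumors 1 and 5, and beside Il6 only Socs3 reached an unadjusted p of 0.05. Socs3, the feedback inhibitor of this pathway, differed by 0.28 (unadjusted p = 0.0468), and Stat3 differed by 0.06. Dusp1 and Klf4, immediate-early genes, differed by 0.63 (unadjusted p = 0.00506) and 0.40 (unadjusted p = 0.0488), yet only 13 of 19 genes of that class had a higher mean, with a median of 0.02.

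Pnma5, a paraneoplastic antigen family gene, had 0 reads in all 5 combination tumors and 2, 3, 2, 1 and 4 reads in chitin tumors 1 to 5 (unadjusted p = 0.000504, limma). An expected count of up to 3 reads can still give 0 in a single tumor. Tmem74 likewise had 0 reads in all combination tumors and 3, 2, 0, 1 and 1 with chitin. With counts this near 0, no fold change is given. Ephb6, a kinase-inactive ephrin receptor, was at 8.53, 8.06, 8.78, 8.57 and 7.85 in the combination and at 10.17, 9.25, 9.07, 8.97 and 10.09 with chitin. The groups did not overlap, the difference was -1.15 with an SE of 0.39 (95% interval -1.97 to -0.34, unadjusted p = 0.00816), and mean normalised counts were 218 and 652. Slc39a4, the intestinal-type zinc importer ZIP4, was at 7.01 to 7.62 in the combination and at 7.24 to 9.18 with chitin (difference -1.04, SE 0.34, unadjusted p = 0.00717).

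Slc12a2, the sodium-potassium-chloride cotransporter NKCC1, was at 9.65 to 10.15 against 9.84 to 11.54 (difference -0.69, unadjusted p = 0.00494). Ppp1r14c, an inhibitor of protein phosphatase 1, was at 7.13 to 8.29 against 7.87 to 9.27 (difference -0.84, unadjusted p = 0.00542). Rapgef3 (EPAC1), a cAMP-activated exchange factor, and Pde4a, which degrades cAMP, differed by -0.64 and -0.53, the first without overlap. Pllp, a myelin and epithelial membrane protein, was at 6.40 to 6.50 against 6.54 to 7.11, also without overlap, but with 3 to 8 reads per tumor in the combination. Plekhh1, Kif21a, Zfp239, Zfp775, Tecpr1 and Stx1a, the others of the 15 with the smallest p, differed by -0.25 to -0.38. Among the 10 largest differences without overlap, the 6 genes not among these 15 differed by -0.17 to -0.24. They include Klhl12, Jrk, Zfp809 and Sav1, the last an adaptor of the Hippo pathway that lay at 9.84 to 10.00 against 10.05 to 10.19.

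Blood, muscle and stroma genes varied with single tumors. The 3 tested of 8 erythroid genes all had a higher mean in the combination, against 51.8% of all genes. Each did so at an unadjusted p of 0.05, where 1.73% of all genes were called higher. Their list means were 8.33, 9.10, 8.74, 10.26 and 10.65 in the combination and 8.82, 8.76, 8.06, 8.87 and 8.10 with chitin. Hba-a1, which has a near-identical copy, differed by 1.22 (unadjusted p = 0.0361) and Hbb-bt by 1.02 (unadjusted p = 0.0314), and without combination tumor 5 these were 0.80 and 0.67 and none of the 3 reached that threshold. In 66cl4 the median of these genes was 1.06. Combination tumor 1, highest in neutrophil genes, was the lowest of its group in the erythroid list. Combination tumors 4 and 5, which came next in neutrophil genes, were the highest in that list. Skeletal muscle genes had a higher mean for 16 of 16, none at an unadjusted p of 0.05, with a median of 0.75 that was 0.24 without combination tumor 5, and 0.90 in 66cl4. Myh1 and Myh2, fast myosin heavy chains of a family with similar sequences, were at 10.39 and 9.55 in that tumor and differed by 0.99 and 0.92, or 0.46 and 0.42 without it. Complement genes had a higher mean for 13 of 16 with a median of 0.33, for 8 of 16 with a median of 0.12 without combination tumor 5 and for 16 of 16 with a median of 0.49 without combination tumor 1. C5ar1, the C5a receptor of neutrophils and macrophages, reached 0.37 (unadjusted p = 0.0292) and C1ra 0.58 (unadjusted p = 0.0519). The part of these tissue components in the neutrophil values was not tested.

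**Figure D5:**
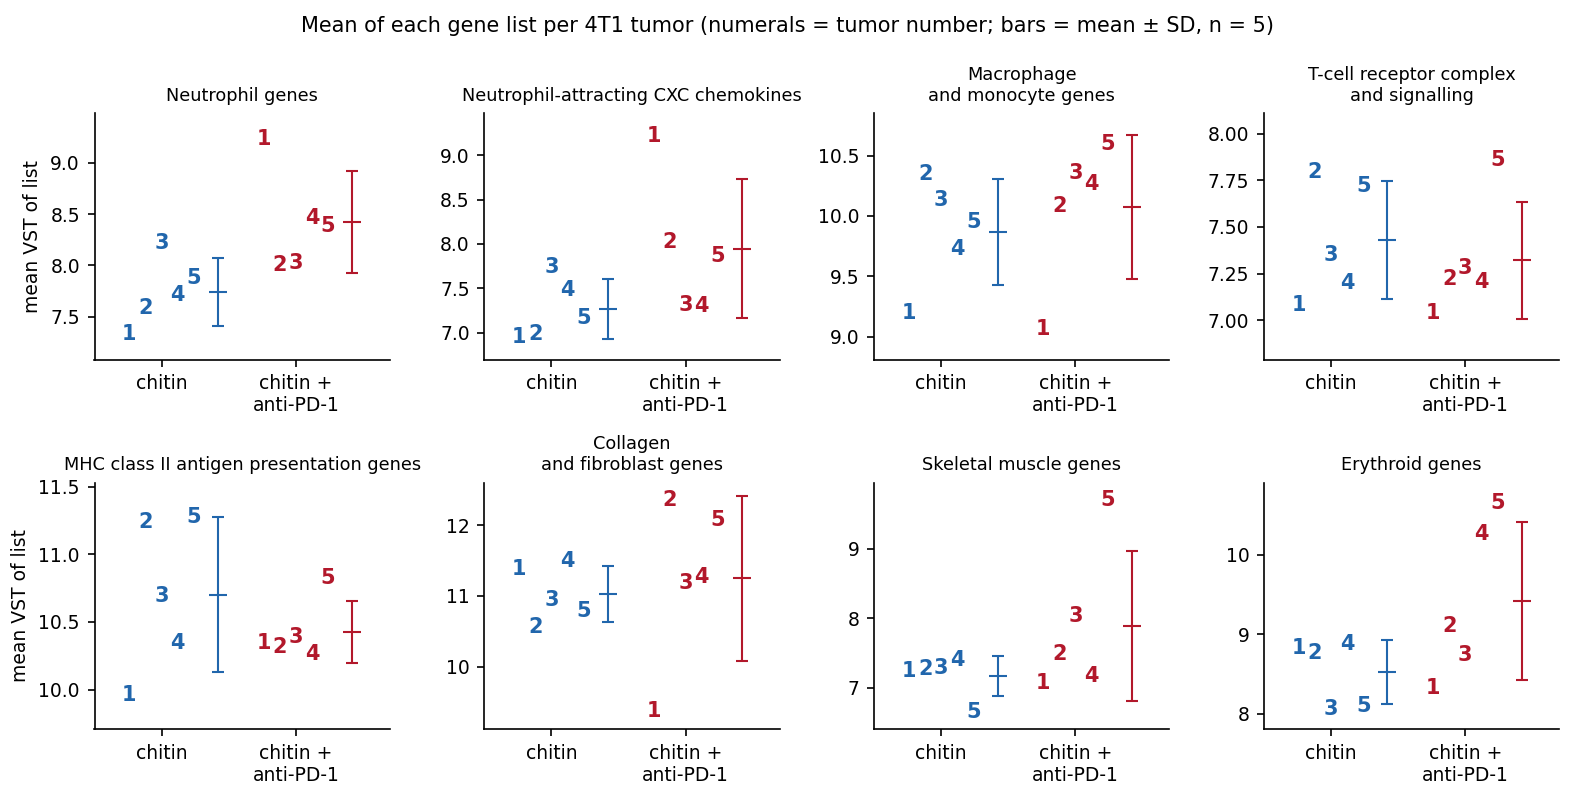
Mean VST value of 8 gene lists (vertical axes, log2-like, which do not start at 0) in 5 chitin (blue) and 5 combination (red) 4T1 tumors, where each numeral is the number of a tumor and the bars give the mean ± SD. Combination tumor 1 is highest for neutrophil and CXC chemokine genes and lowest for macrophage and collagen genes, and tumor 5 is highest for muscle and erythroid genes.

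Growth and epithelial genes gave differences within the spread. Mki67, a marker of dividing cells, was at 9.27 to 11.25 in the combination and at 9.54 to 10.45 with chitin (difference 0.22, 95% interval -0.37 to 0.81), and 17 of 20 proliferation genes had a higher mean with a median of 0.10. Without combination tumor 5, Mki67 differed by -0.02 and 8 of the 20 genes had a higher mean, with a median of -0.02. Epcam differed by -0.64 (95% interval -1.45 to 0.18, unadjusted p = 0.12), or -0.41 without combination tumor 5. The galectin-3 gene Lgals3 differed by 0.20, and Usf1 and Rab37 by -0.17 and 0.06. Milk and fat genes depended on single tumors, with Csn2 at 10.07 in chitin tumor 5 and at 6.21 to 7.97 in the other 9 tumors, and Fabp4 at 7.41 to 11.16 in the combination and 7.64 to 11.27 with chitin.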

How the data were processed

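RNA libraries were made by the authors from 250 ng of total RNA per primary tumor with a stranded protocol. Per the labels and methods, reads were aligned with HISAT2 to mm10, counted per gene, filtered to genes that exceeded 10 reads in 10% of cases or more, and transformed with the variance stabilizing transformation of DESeq2, so that the deposited values are log2-like. Tool versions and the counting annotation are not given in the sources used here. Reads were recovered by inverting the transformation and were whole for 100% of values (tolerance 0.001). Untreated 4T1 tumor 3 was not used here.

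limma 3.58.1 in R 4.3.3 (lmFit on group means of the 19 4T1 tumors, eBayes with a mean-variance trend, Benjamini-Hochberg over 14318 genes, threshold 0.05) compared the groups, and differences between contrasts were fitted as contrasts of contrasts. The procedure was tested on simulated data. The labels do not say which mouse each tumor came from, so p-values measure the spread between these tumors. The paper inoculated a pair of glands per mouse, so tumors of a group may share a mouse and need not be independent. With 5 tumors per group, the median width of the 95% interval over genes was 0.495.

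Members, gene lists and tests were chosen with earlier results of these data known. Named genes are the 15 with the smallest p in each direction, the 10 with the largest difference without overlap in each direction, genes of 46 proteins the study names (among them Chil4, Ly6g and Mpo were not analysed here), the 2 with the smallest p per list and direction, and the 5 with the smallest p for each difference test. All tested members of the neutrophil list are also named. A few genes that this rule picks are not reported here. Positions and promoters are from RefSeq (GRCm38.p6, the same build as mm10). Alternatives were no trend, a filter on low genes, median centring, quantile normalization, array weights, limma-voom, only the 10 tumors, both models in one fit, a minimum difference of 1, the tumor number as a block, and leaving out each tumor. Leaving out combination tumors 1 and 5 together was added after seeing the data.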

Additional observations from a re-analysis of the deposited data

Results flagged for a closer look

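In each group of 5 tumors, a value was marked where the highest or lowest tumor lay apart from the next by more than a share of 0.71 of the whole range (Dixon's criterion). Of 362 groups of values tested 26 were marked, where chance marks about 1 in 20, and combination tumor 1 accounts for 9. Causes were not tested.

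Combination tumor 1 was highest for the chemokine genes Cxcl2 (gap 0.751 of the range), Cxcl5 (0.723) and Ccl3 (0.728) and for Stfa2l1 (0.716). It was lowest for Csf1r (0.765), Mrc1 (0.731), Tgfb1 (0.723), C5ar1 (0.760) and the mean of the Schwann and nerve genes (0.720).

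Combination tumor 3 was highest for Mcemp1 (0.825), F10 (0.719) and Ovgp1 (0.716) and lowest for Jrk (0.803). Combination tumor 5 was highest for Cd3d (0.867), Xcl1 (0.813) and the mean of MHC class II genes (0.779), and lowest for Gm15867 (0.906), a predicted gene.

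Among chitin tumors, number 1 was lowest for Socs3 (0.728) and for the means of p53 pathway genes (0.831) and complement genes (0.857). Number 2 was highest for Clec7a (0.813) and Jrk (0.768), and number 3 was lowest for mitochondrial respiratory chain genes (0.749). Number 5 was highest for Csn2 (0.738) and MHC class I genes (0.806), and lowest for skeletal muscle genes (0.793).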

How the results depend on the processing

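No gene passed an adjusted p of 0.05 for the combination against chitin (limma) under any alternative except the fit of both models, with 5 genes higher, and the fit without combination tumor 2, with 2 genes higher (range 0 to 2 on leaving out a tumor). The model difference gave 0 throughout. The difference with and without chitin gave 0 except for 1 gene lower without anti-PD-1 tumor 2, Pla2g2d (range 0 to 1). Genes at an unadjusted p of 0.05 numbered 445, and 268 to 778 on leaving out a tumor, with 268 without combination tumor 2, 287 without combination tumor 5, 685 without chitin tumor 4, 778 without combination tumor 1, and 1080 with both models in one fit. For the model difference the range was 377 to 874 around 516, and for the difference with and without chitin 383 to 1421 around 648, with 1711 under array weights. The tumor number as a replicate block gave 0 genes and 398 at an unadjusted p of 0.05. Same-numbered tumors correlated in their deviations from group means at 0.147, -0.392, 0.166, 0.0877 and 0.224. Tumors 1 and 5 correlated best with their own number, and tumors 2, 3 and 4 with another. So few correlations cannot show whether the numbers pair the tumors, and the main fit used no pairing.

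Of 139 named genes, 111 kept their direction in every alternative. Genes named for lack of overlap cannot turn on leaving out a tumor, so this count is partly set by how genes were chosen. On leaving out a tumor, the difference ranged from -0.0973 to 0.0437 for Havcr2, -0.0823 to 0.0823 for Ctla4, -0.114 to 0.172 for Cd4, -0.230 to 0.0484 for Cd8b1, -0.0026 to 0.450 for Gzmb, -0.0118 to 0.163 for Ifng and -0.0218 to 0.474 for Mki67. It ranged from -0.1000 to 0.0632 for Foxp3, -0.143 to 0.0193 for Ncr1, -0.0940 to 0.513 for Csf1r, -0.325 to 0.201 for Adgre1, -0.0037 to 0.0912 for Cd80, -0.131 to 0.0027 for Tnf and -0.0662 to 0.116 for Tgfb1. It ranged from -0.0179 to 0.323 for Lgals3, -0.118 to 0.772 for Ltf, -0.288 to 0.797 for Lcn2, -0.0829 to 0.0494 for Chid1, -0.0880 to 0.0456 for Ovgp1, -0.600 to 0.362 for Csn2 and -0.717 to 0.221 for Fabp4.

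Array weights turned the direction of Havcr2 (0.0180), Ctla4 (0.0200), Cd8b1 (0.0089), Stat3 (-0.0163), Tgfb1 (0.0902), Lgals3 (-0.0644), Ltf (-0.349), Lcn2 (-0.128), Chid1 (0.0046) and Ovgp1 (0.0064), and limma-voom that of Ctla4 (0.141) and Tgfb1 (0.00082). Leaving out combination tumors 1 and 5, chosen after seeing the data, turned Cd274 (-0.160), Cd4 (-0.0116), Gzmb (-0.316), Prf1 (-0.139), Ifng (-0.0910), Mki67 (-0.0016), Adgre1 (0.0361), Il1b (-0.0310), Il10 (-0.0561), Tgfb1 (0.131), Ly6c2 (-0.285), Acod1 (-0.139), Chid1 (0.0114) and Fabp4 (0.232). The cause was not tested. Depth limits genes with few reads, such as Pnma5, Tmem74, Il6 and Csf2.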

Other observations

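The gene groups outside the comparisons above had small medians and no gene at an adjusted p of 0.05 (limma). Cytosolic ribosomal protein genes had a higher mean in the combination for 3 of 24, with a median of -0.11, but for 12 of 24 with a median of -0.0013 without combination tumor 5 and 0 of 24 with a median of -0.24 without combination tumor 1. Cholesterol synthesis and uptake genes had a higher mean for 17 of 18 (median 0.08), or 14 of 18 (median 0.05) without combination tumor 5, and in 66cl4 for 0 of 18 (median -0.14). Glycolysis and hypoxia genes had a higher mean for 19 of 22 (median 0.13), but for 11 of 22 (median 0.02) without combination tumor 1, in 66cl4 for 1 of 22 and for anti-PD-1 without chitin for 1 of 22. Endothelial genes had a higher mean for 13 of 14 (median 0.22, or 0.13 without combination tumor 5) and lymphatic endothelial genes for 6 of 6 (median 0.31). Lyve1, a hyaluronan receptor of lymphatic vessels and some macrophages, was at 6.87 to 8.84 in the combination and 6.61 to 8.18 with chitin (difference 0.85, unadjusted p = 0.0657).

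Single members differed more than their groups. Ndufa4, a respiratory chain subunit, was at 9.20 to 9.85 against 9.49 to 10.56 (difference -0.53, unadjusted p = 0.0087), while 10 of 20 genes of its group had a higher mean. Trib3, a pseudokinase of the stress response, differed by -0.45 (unadjusted p = 0.0407), and 12 of 16 genes of its group had a higher mean. Bag3, a cochaperone, differed by 0.22 (unadjusted p = 0.0448), and 4 of 12 heat shock genes had a higher mean, or 7 of 12 without combination tumor 5. Among nerve genes Prx and Ncmap, both known from myelinating Schwann cells, differed by 0.21 (unadjusted p = 0.00943) and -0.64 (unadjusted p = 0.04999). Ccl22, a chemokine of dendritic cells, differed by -0.39 with chitin and 0.94 without (unadjusted p of the difference 0.00552). Regulatory T-cell genes had a higher mean for 2 of 10, B-cell genes for 3 of 8, dendritic cell genes for 5 of 12 (8 without combination tumor 1), CC and CXCR3 chemokine genes for 7 of 12 (5 without it), and circadian clock genes for 11 of 13.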
